A study of Mus musculus with 768 samples.

Results

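The 9 genes described here encode channels, receptors, G-protein regulators and other products read as characteristic of brain pericytes: Kcnj8, Abcc9, Atp13a5, Rgs5, Rgs4, Art3, Pth1r, Trpc4 and Higd1b. They were selected on their own levels in these wells, as genes higher in pericytes than in most other cells sorted here, out of 32679 genes in the count table. Their levels across cell classes are therefore given as a description, with no test. Each level is in CPM, read counts of a gene per 1000000 counts of its well, so it is a share of the well's reads and not an amount of RNA.

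The cells came from the dentate gyrus, a hippocampal region that makes neurons throughout adult life, of 8 male Nestin:GFP mice aged 2 months. In these mice green fluorescent protein is driven by elements of Nes, a gene of neural stem cells, and single cells were sorted for that fluorescence. The Control group, mice 1, 3, 5 and 7, had received a negative control oligonucleotide, and the miR-132 group, mice 2, 4, 6 and 8, a miR-132 mimic, an oligonucleotide that acts as extra copies of this microRNA. Both groups were given 150 pmol in 3 µl with the transfection reagent lipofectamine 2000, once a week for 5 weeks, and both carried the same reporter, so no mouse was without injection. The sorting date was 17 April for mice 1 to 4 and 19 April for the others, with 94 cells taken from each. The series text places the cells in the "AD dentate gyrus" without saying what AD stands for. The reporter decides which cells enter, so a class is represented by its fluorescent cells only.

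Pericytes sit on the wall of capillaries, where they share a basement membrane with the endothelium, and smooth muscle cells ring the larger vessels. Kcnj8 encodes Kir6.1, the pore of an ATP-sensitive potassium channel, and Abcc9 encodes SUR2, the regulatory subunit that assembles with it. Opening of this channel hyperpolarizes the cell and relaxes vessels. Rgs5 and Rgs4 encode regulators that speed the shut-off of G proteins after a receptor has been activated, Pth1r is the receptor for parathyroid hormone and its related peptide, and Trpc4 is a cation channel opened downstream of receptors coupled to phospholipase C. Atp13a5 encodes a P5-type transport ATPase, Art3 a member of the ADP-ribosyltransferase family anchored at the cell surface, and Higd1b a protein of the HIG1 family found in mitochondria.

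The members include 2 pairs of neighbours on the chromosome. On build mm10, Kcnj8 lies at chr6:142564837-142571614 on the minus strand and Abcc9 at chr6:142587862-142702315 on the same strand, 16.2 kb apart with no annotated gene between them in GENCODE M21. Rgs5 lies at chr1:169655501-169695813 on the plus strand and Rgs4 at chr1:169741477-169747642 on the minus strand, 45.7 kb apart and again with no gene between. The other members stand alone: Atp13a5 at chr16:29231851-29378732, Art3 at chr5:92331827-92414628, Pth1r at chr9:110722085-110747145, Trpc4 at chr3:54156035-54318471 and Higd1b at chr11:102835849-102838040. Exons of Abcc9 overlap the opposite-strand gene 5330439B14Rik, those of Art3 overlap Cxcl10, and those of Pth1r share 95 bases with Myl3. Strand is not kept by Smart-seq2, and reads from these stretches could belong to either gene.

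The upstream sequences of the 2 neighbour pairs are shown because the first pair was nearly limited to pericytes and the second was as high in smooth muscle. Each is the 250 bases before the RefSeq start of the gene on GRCm38.p6, 5′ to 3′ on the gene's strand, and capitals mark matches to any of the motifs listed after them. Kcnj8 is chr6:142571615-142571864, Abcc9 chr6:142702275-142702524, Rgs5 chr1:169655251-169655500 and Rgs4 chr1:169747643-169747892.
Kcnj8: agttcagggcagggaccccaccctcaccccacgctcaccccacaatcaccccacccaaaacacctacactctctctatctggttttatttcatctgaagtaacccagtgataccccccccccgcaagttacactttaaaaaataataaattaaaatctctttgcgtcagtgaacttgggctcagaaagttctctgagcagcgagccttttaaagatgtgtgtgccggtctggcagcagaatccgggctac
Abcc9: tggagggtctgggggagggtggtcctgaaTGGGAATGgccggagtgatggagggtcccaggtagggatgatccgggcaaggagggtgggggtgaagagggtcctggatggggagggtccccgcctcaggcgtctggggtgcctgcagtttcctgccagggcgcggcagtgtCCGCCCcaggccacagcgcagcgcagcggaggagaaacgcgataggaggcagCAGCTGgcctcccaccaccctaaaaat
Rgs5: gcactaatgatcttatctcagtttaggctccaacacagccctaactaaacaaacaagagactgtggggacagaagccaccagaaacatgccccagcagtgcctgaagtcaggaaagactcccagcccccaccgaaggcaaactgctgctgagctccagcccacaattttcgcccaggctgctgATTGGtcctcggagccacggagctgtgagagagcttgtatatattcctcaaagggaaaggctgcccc
Rgs4: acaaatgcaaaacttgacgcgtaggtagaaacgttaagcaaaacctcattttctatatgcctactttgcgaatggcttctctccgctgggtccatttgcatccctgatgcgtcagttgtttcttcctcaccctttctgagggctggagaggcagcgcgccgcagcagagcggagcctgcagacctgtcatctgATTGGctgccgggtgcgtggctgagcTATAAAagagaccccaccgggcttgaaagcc

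RefSeq promoters were found for 8 of 9 members, 12 starts in all. The motifs searched on both strands were a TATA box (TATAAA), a GC box (GGGCGG), a TEAD motif (GGAATG), an RBPJ motif (TGGGAA), a forkhead motif (TGTTTAC), the CArG box, a CRE (TGACGTCA) and the shorter TGACGT within it, an AP-1 motif (TGACTCA), an E-box (CAGCTG) and a CCAAT box (CCAAT). Abcc9 held a TEAD match and an RBPJ match that overlap, near the far end of the window, a GC box at 79 to 74 and an E-box at 27 to 22. Of 32851 windows of this length, 12.6% held the TEAD letters, 21.6% the RBPJ letters, 32.7% the GC box and 13% the E-box. Kcnj8 held none of the motifs. Rgs5 and Rgs4 each held a CCAAT box, at 67 to 63 and at 57 to 53 bases before the start, and 33.9% of all windows held one. Rgs4 also held a TATA box at 31 to 26, as 12.4% of windows did anywhere in their length. Atp13a5 held a TEAD match at 77 to 72. GC content was 49.2% for Kcnj8, 66.8% for Abcc9, and 53.6% for both Rgs5 and Rgs4, beside a median of 52.4% over all windows. These matches describe letters only.

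Of 768 wells, 675 had at least 50000 counts and 1000 genes and were kept. Their median depth was 646537 counts, over 2741 genes. Summed counts per mouse ranged from 43889169 to 66897586. Wells were clustered without the 9 members, and clusters were named from marker lists that hold none of them, which gave 71 pericyte-like, 12 smooth muscle-like, 16 fibroblast-like, 95 astrocyte-like, 300 oligodendrocyte-like, 18 oligodendrocyte precursor-like and 38 neuroblast-like wells. Endothelial-like wells were 16.3% of the 657 wells in named classes. A further 18 wells stayed unnamed, 16 of them with 10045 genes or more where no other kept well passed 5015. All 8 pericyte markers (Pdgfrb, Vtn, Anpep, Notch3, Ndufa4l2, Cox4i2, P2ry14 and Slc19a1) were found in at least 10% of the pericyte-like wells, with a summed level of 20428 to 86080 CPM. In the same wells the 8 smooth muscle markers summed to 797 to 24405 CPM and Pln was at 0. The endothelial, astrocyte and microglial lists had a median sum of 0, and the 4 ependymal and choroid plexus markers were all at 0. In the smooth muscle-like wells the smooth muscle markers had a median sum of 29889 CPM and the pericyte markers 11847 CPM. Of the 8 pericyte markers, 7 were found in at least 50% of those wells, so the 2 mural classes share much of these lists. All values by mouse, treatment and date rest on the map of wells to mice in the samples' descriptions. A second map, by sample titles, gives the same mouse for only 96 of the 768 wells. Which of them is right was not settled. Each mouse gave 5 to 18 pericyte-like wells, the most in Control mouse 7. Smooth muscle-like wells came from only 5 mice: 3 from mouse 1, 1 from mouse 2, 3 from mouse 4, 4 from mouse 7 and 1 from mouse 8.

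Together the 9 members took a median of 2.21% of all counts in a pericyte-like well (lowest 0.824%, highest 3.81%) and 1.11% in a smooth muscle-like well. In fibroblast-like, endothelial-like, astrocyte-like, oligodendrocyte-like, precursor-like and neuroblast-like wells the median was 0. Mean CPM was highest in pericyte-like wells for 8 of 9 members, and for all of them the mural classes, pericyte-like and smooth muscle-like, came first and second. Pericyte-like wells held counts for a median of 8 members (4 to 9), smooth muscle-like wells for 4 (3 to 8), and the 574 wells of the other named classes for 0 (at most 3). What separated the members from each other was the step from pericytes to smooth muscle, which ran from a ratio of 50.5 for Abcc9 to 0.808 for Rgs5.

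**Figure D1:**
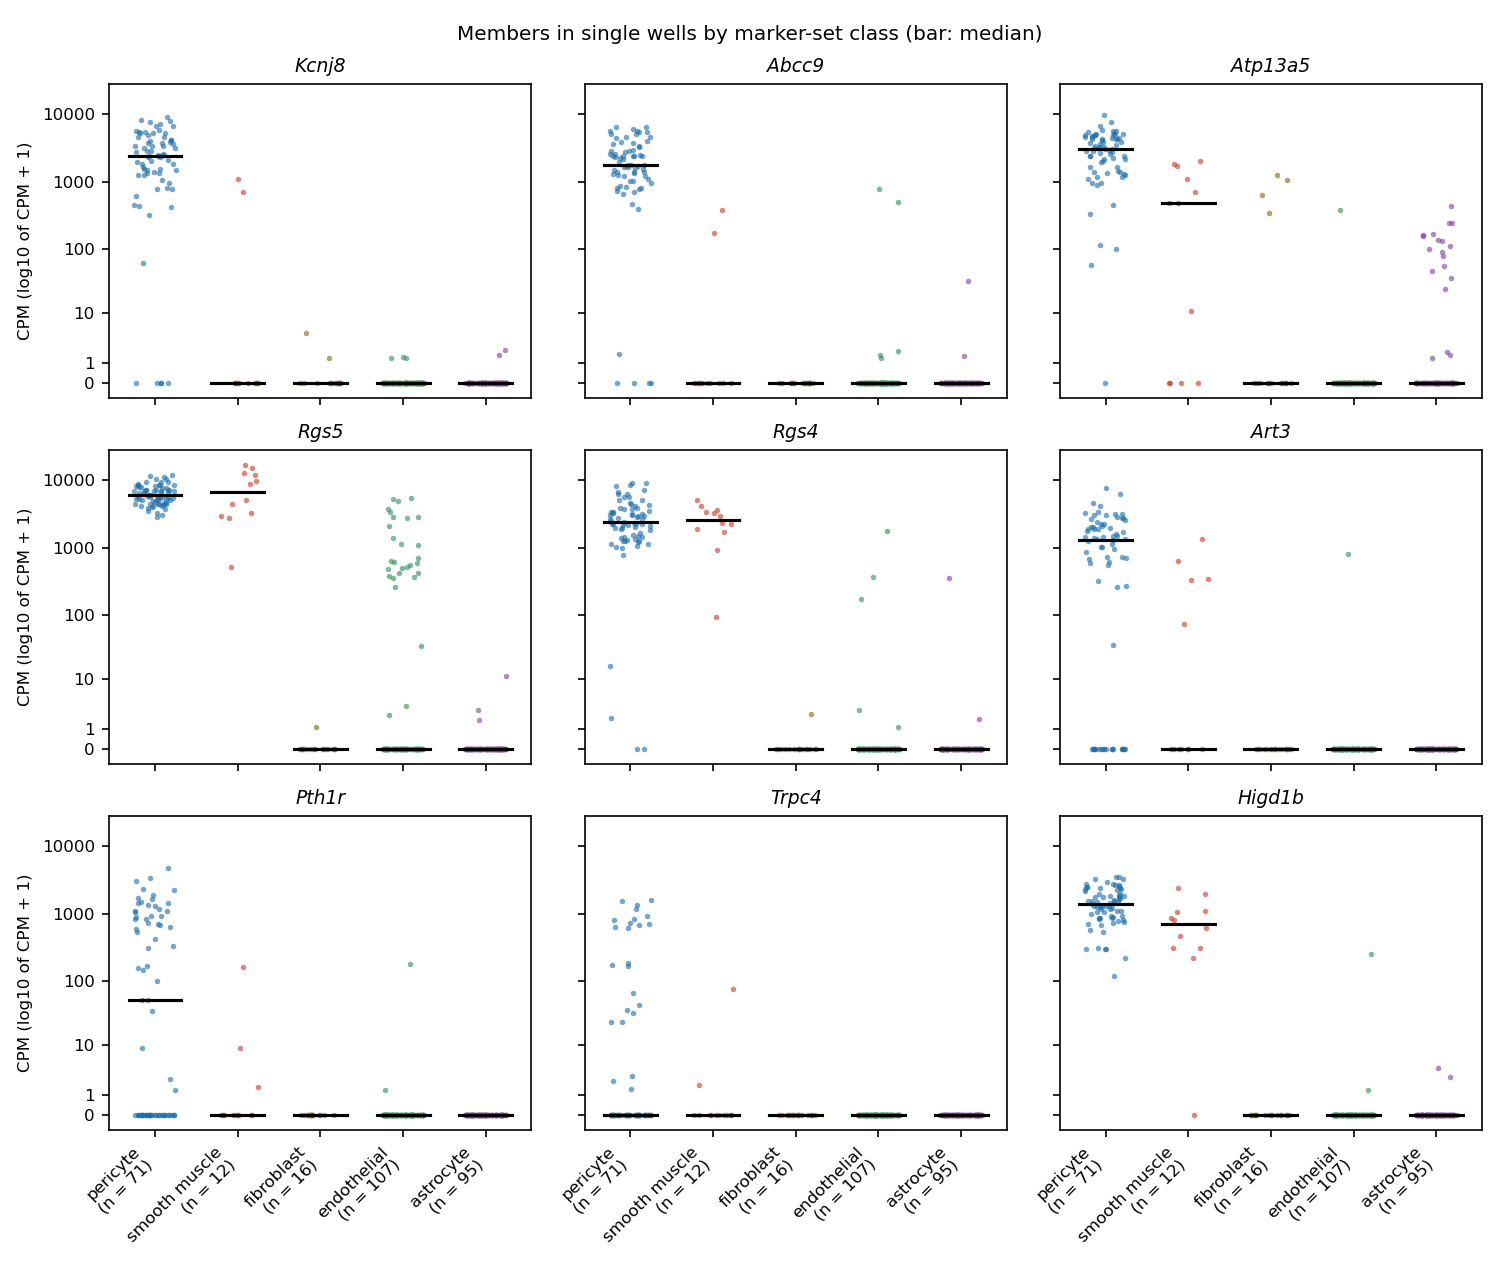
CPM of each member (log10 of CPM + 1, vertical axis) in single wells of 5 marker-set classes (horizontal axis), 1 point per well, with the median as a bar. Kcnj8 and Abcc9 have a median of 0 in all classes but the pericyte-like, while Rgs5, Rgs4 and Higd1b are also present in nearly all 12 smooth muscle-like wells, and Rgs5 in 29 endothelial-like wells.

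The channel pore gene Kcnj8 had a mean of 2952 CPM over the 71 pericyte-like wells and a count in 66 of them. By mouse the pericyte mean was 2875 ± 737 (SD, n = 8), from 1718 in miR-132 mouse 6 to 3894 in Control mouse 3. In smooth muscle-like wells only 2 of 12 had a count, at 709 and 1101 CPM, in mice 4 and 1, and the means of the 5 mice ran from 0 to 366.99. No mouse's smooth muscle mean reached the lowest pericyte mean. In the endothelial-like wells Kcnj8 had a count in 3 (2.8%), never above 1.46 CPM, and in the 300 oligodendrocyte-like wells in 5, never above 2.22 CPM. The fibroblast-like wells, the other perivascular class, had a count in 2 of 16, at most 4.57 CPM. Of all counts of Kcnj8 in named classes, 99.1% were in pericyte-like wells.

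The regulatory subunit gene Abcc9 followed the same order. Its pericyte mean was 2333 CPM, with a count in 67 of 71 wells and a mean by mouse of 2360 ± 779 (SD, n = 8), from 979 in miR-132 mouse 6 to 3502 in miR-132 mouse 4. The same 2 of 12 share held in smooth muscle, with 380 CPM in the mouse 1 well that also had Kcnj8 and 173.5 CPM in a mouse 4 well that did not. Fibroblast-like wells had a count in 0 of 16, which allows a share of up to 18.8%. Endothelial-like wells had a count in 5 (4.67%), 2 of them above 100 CPM and the highest at 789 CPM, so Abcc9 was seen in a few endothelial-like wells where Kcnj8 was near 0.

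Within pericyte-like wells the 2 channel genes were nearly always found together. Both had a count in 65 wells, only Kcnj8 in 1, only Abcc9 in 2 and neither in 3. On log2(CPM + 1) their Pearson r over the 71 wells was 0.58 (Spearman 0.49), the highest of the 36 member pairs, and 0.59 after taking out the mean of each mouse. Over the 65 wells with both the Pearson r was 0.18, so its size depended largely on the few wells at 0. Among the 65 was a well of Control mouse 3 with 4165 CPM Kcnj8 and only 1.76 CPM Abcc9. A Spearman rho over the 65 was not computed, so how far their ranks were related is not given here. These are correlations over cells that share mice and depth, given as a description. The 3 wells with neither gene came from miR-132 mice 2 and 6. All 3 had Atp13a5 (113.7, 1279 and 5710 CPM), Rgs5 of at least 2856 CPM and Vtn, a pericyte marker, of at least 20477 CPM, and Myh11, the smooth muscle myosin heavy chain gene, was at 0. Acta2, the smooth muscle actin gene, was at 1765 and 1943 CPM in the 2 wells from mouse 6 and at 0 in the well from mouse 2.

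Rgs5 and Higd1b were in all 71 pericyte-like wells, and the transport ATPase gene Atp13a5 was at 0 in only 1. Its mean was 3187 CPM, and 3174 ± 910 by mouse (SD, n = 8), from 2243 in Control mouse 3 to 4953 in Control mouse 5. Smooth muscle-like wells had it in 8 of 12, with a mean of 693 CPM and at most 2030 CPM, and the 5 mouse means of 0 to 1043 stayed below every pericyte mean. Atp13a5 was also the member with the most signal in classes outside the vessel wall and meninges. Of 95 astrocyte-like wells 19 had a count (20%, exact 95% interval 12.5% to 29.5%, counting error only), and 9 of these, from 5 mice, were at 108.01 to 430 CPM. Of 16 fibroblast-like wells 4, from 4 mice, were at 340.7, 637, 1049 and 1260 CPM. No other member passed 1.8 CPM in those 9 astrocyte-like or 4 fibroblast-like wells. Oligodendrocyte-like wells, in contrast, had a count in 8 of 300 and none above 4.45 CPM.

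Rgs5, the member with the highest mean CPM in pericytes, did not separate them from smooth muscle. Pericyte-like wells had it in 71 of 71, from 2856 to 12091 CPM with a median of 6012, and 6398 ± 1105 by mouse (SD, n = 8). Smooth muscle-like wells had it in 12 of 12, from 519 to 17135 CPM with a median of 6918, and 7749 ± 4048 by mouse (SD, n = 5). The 2 classes overlapped: 6 of the 12 smooth muscle-like wells were above the pericyte median, and pericytes were higher in 2 of the 5 mice that had both. The smooth muscle spread was wider, also over wells (SD 5538 CPM against 2127 in pericytes). The lowest and highest mouse values, 3233 in mouse 8 and 12800 in mouse 2, were 1 well each. With 1 to 4 smooth muscle-like wells per mouse, the SD by mouse also holds spread between wells. Control mouse 7 held 4 of the 12 wells, averaging 11095 CPM, and without it the smooth muscle mean over wells went from 7939 to 6360 CPM, beside 6387 CPM in pericytes. As a mean by mouse, smooth muscle stayed the higher of the 2 without it.

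Its neighbour Rgs4 behaved in the same way at a lower level. The pericyte mean was 3189 ± 844 CPM by mouse (SD, n = 8) and the smooth muscle mean 2973 ± 922 (SD, n = 5). The difference was smaller than either SD, the smooth muscle SD being over mice with 1 to 4 such wells each. It had a count in 69 of 71 and 12 of 12 wells, and pericytes were higher in 3 of 5 mice. Outside the mural wells Rgs4 was rare, with 3 endothelial-like wells (2.8%) and 1 of 95 astrocyte-like wells at 100 CPM or more. Inside pericyte-like wells the levels of the 2 neighbours were little related (Pearson r 0.13 over 71 wells).

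Rgs5 was also the only member with a sizeable endothelial signal. A count was found in 29 endothelial-like wells (27.1%, exact 95% interval 19% to 36.6%, counting error only), and 26 were at 100 CPM or more, from 262.2 to 5525 with a median of 667 CPM. As a background, 7 of 300 oligodendrocyte-like wells had an Rgs5 count, none above 2.41 CPM. The 26 wells came from 7 mice, and 10 of them from miR-132 mouse 4, which had 13 endothelial-like wells in all. Cldn5, the endothelial tight junction gene, had a median of 11599 CPM in the 26 wells and 11844 CPM in the other 81. Of the 26, 20 had no pericyte marker at 100 CPM or more and reached 5005 CPM Rgs5, and 6 had one, against 1 of the other 81. None of the 26 had Pdgfrb or Notch3 at 100 CPM, 4 had Vtn, 7 had another member at that level, and their highest Kcnj8 was 1.42 CPM. Median depth was 530478 counts in the 26 wells and 586631 in the 81. The part of attached pericyte fragments or free RNA in this signal was not tested.

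**Figure D2:**
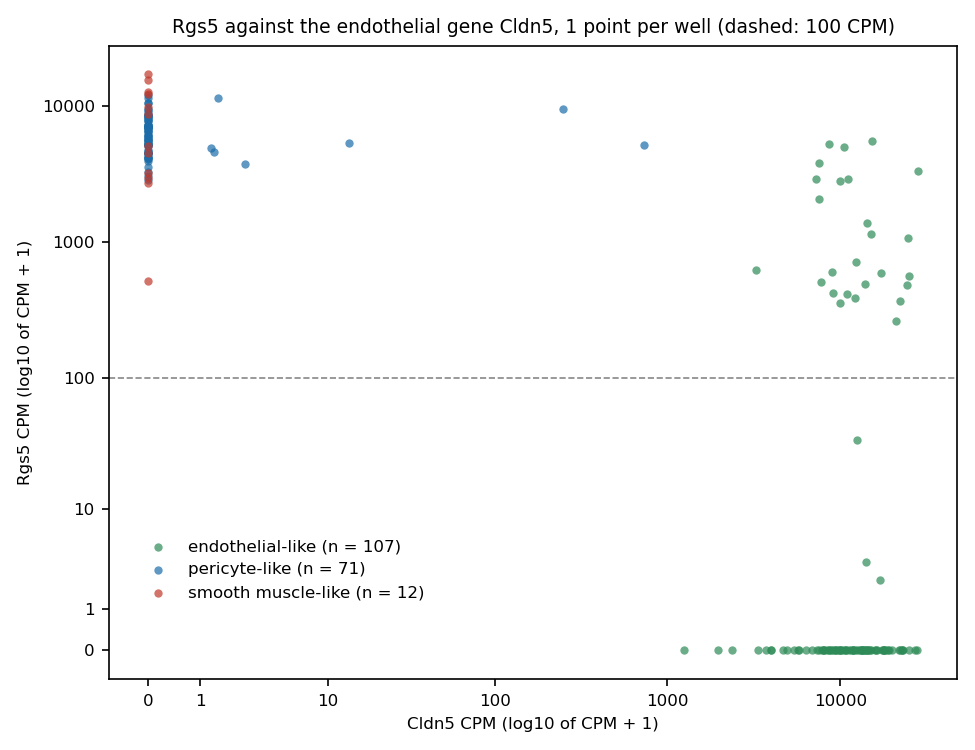
Rgs5 CPM (vertical axis) against CPM of the endothelial gene Cldn5 (horizontal axis), both as log10 of CPM + 1, 1 point per endothelial-like, pericyte-like or smooth muscle-like well. The 26 endothelial-like wells above the dashed line at 100 CPM have Cldn5 from 3240 CPM upward, and lie apart from the pericyte-like wells, which have little or none.

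Art3, Pth1r and Trpc4 were detected in the fewest pericyte-like wells. Art3 had a count in 53 of 71 pericyte-like wells (74.6%), Pth1r in 41 (57.7%, exact 95% interval 45.4% to 69.4%) and Trpc4 in 24 (33.8%, exact 95% interval 23% to 46%). After thinning every well to 50000 counts the shares were 74.6%, 53.5% and 25.4%, so the share for Art3 did not move and that for Trpc4 moved most. Wells with and without each gene had similar depth: a median of 632230 counts with Pth1r and 614868 without, 628176 and 607129 for Art3, and 658824 and 608983 for Trpc4. Pericyte marker sums were also alike, with medians of 54545 CPM in wells with Pth1r and 50369 CPM in wells without.

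Where found, these 3 genes could be high. Pth1r reached 4823 CPM in a single pericyte-like well although its median over all 71 was 50.9, and Trpc4 reached 1571 CPM with a median of 0. By mouse, Pth1r means lay between 513 and 825 CPM in 7 mice and at 6.83 in miR-132 mouse 4, where 1 of 5 wells had a count. Art3 ran from 397 in miR-132 mouse 2 to 3504 in miR-132 mouse 4, and Trpc4 from 22.1 in miR-132 mouse 6 to 581 in miR-132 mouse 4. With 5 to 18 wells per mouse, 1 well weighs heavily in such means. The 3 genes did not mark the same wells: Pth1r and Trpc4 were together in 11 wells, Pth1r alone of the pair in 30, Trpc4 alone in 13 and neither in 17.

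All 3 were lower in smooth muscle by mean level. Art3 was in 5 of 12 smooth muscle-like wells at a mean of 227.1 CPM against 1463 in pericytes, Pth1r in 3 of 12 at 14.3 against 599, and Trpc4 in 2 of 12 at 6.33, 27.2-fold below its pericyte mean. Their mouse means overlapped between the classes, unlike those of Kcnj8, Abcc9 and Atp13a5. In the fibroblast-like wells each was at 0 of 16. In the 95 astrocyte-like wells Art3, Pth1r and Trpc4 were at 0, which allows a share of up to 3.81% (exact 95% interval, counting error only). Endothelial-like wells had no Trpc4 count, allowing up to 3.39% by the same interval.

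Higd1b, a small gene whose protein is found in mitochondria, had a count in 71 of 71 pericyte-like wells, from 119.1 to 3478 CPM. Its mouse means of 1523 ± 329.1 (SD, n = 8) ran from 1168 in miR-132 mouse 2 to 2124 in miR-132 mouse 6. Smooth muscle-like wells had it in 11 of 12 at a mean of 843 CPM, and pericytes were higher in 4 of 5 mice, with overlapping mouse means. Its exons add up to only 847 bases, so per length it came first. On CPM per kb of exon, pericyte levels were 1807 for Higd1b, 1411 for Rgs5, 1158 for Kcnj8, 972 for Rgs4, 684 for Atp13a5, 372.2 for Art3, 278.6 for Abcc9, 204.7 for Pth1r and 21.4 for Trpc4. On that scale the channel pore Kcnj8 stood above its partner Abcc9, although their CPM were close.

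The 12 smooth muscle-like wells were not alike in the members they held. The well with the most Acta2, the smooth muscle actin gene, at 41829 CPM, had the lowest Rgs5 (519 CPM), the highest Rgs4 (5126 CPM) and no count of Kcnj8, Abcc9, Atp13a5, Art3 or Trpc4. The 3 wells with the most Acta2 (19224 CPM or more) all had 0 Atp13a5 and at most 3233 CPM Rgs5. The well with the least Acta2, 57.6 CPM, had 1474 CPM Myh11, 488 CPM Atp13a5 and 5099 CPM Rgs5. By the highest mean of the marker lists, 5 of the 12 wells, this one among them, would be placed with pericytes. Those 5 had a mean of 1160 CPM Atp13a5 and 0 Kcnj8, and the other 7 had 360 CPM Atp13a5 and 258.6 CPM Kcnj8. Low Kcnj8 therefore held in both sets of wells, while Atp13a5 and Rgs5 were higher in the wells nearer to pericytes by marker score.

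**Figure D3:**
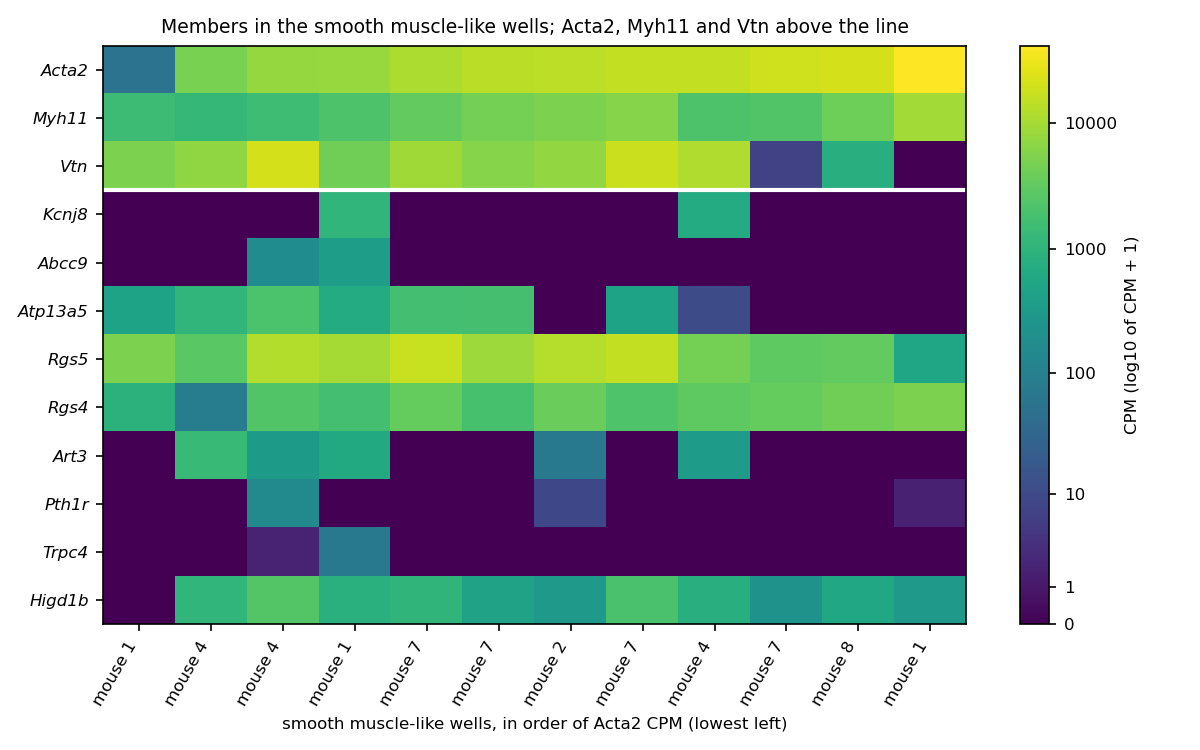
CPM (colour, log10 of CPM + 1) of Acta2, Myh11 and Vtn, above the white line, and of the 9 members, below it, in the 12 smooth muscle-like wells in order of Acta2, labelled by mouse. Rgs5 and Rgs4 have counts in all 12, and Kcnj8 and Abcc9 in 2 each.

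Apart from the channel pair, levels of the members were weakly related between pericytes. Over the 36 pairs the median Pearson r of log2(CPM + 1) was 0.12 and the lowest -0.23, for Abcc9 and Higd1b. Abcc9 and Atp13a5 had the next highest r, 0.50, with a Spearman rho of only 0.06. Over the 67 wells with both their Pearson r was 0.29. All 9 members were found in 11 of the 71 wells, 8 in 28, 7 in 22 and 6 in 7. The remaining 3 wells had 4 or 5.

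Other genes followed the members closely across the 657 wells of named classes. Likeness was the Pearson r of a gene's log2(CPM + 1) with the mean of the 9 members on that scale, among 618 genes that at least 50% of pericyte-like wells held, and members themselves are left out here. The closest were Adap2 (r 0.94), Cox4i2 (0.92), Ndufa4l2 (0.90), Gper1 (0.89), Myl9 (0.89), Vtn (0.89), Notch3 (0.88), Cd248 (0.88), Ifitm1 (0.87) and Heyl (0.87). The same 10 genes came first by Spearman rho. Cox4i2, Ndufa4l2, Vtn and Notch3 were among the pericyte markers that named the class, and Myl9 among the smooth muscle markers. Adap2 had 934 CPM in pericyte-like and 707 in smooth muscle-like wells, with 0 in endothelial-like wells. Gper1, a G protein-coupled estrogen receptor, had 2907 and 584 CPM, and Heyl, a target of Notch signalling, 1145 and 589 CPM. The 10 were also far lower in endothelial-like than in pericyte-like wells, with 0 to 80.8 CPM there, and r over wells of all classes includes such differences between classes. Not all were low outside mural wells: Vtn had 17679 CPM in fibroblast-like wells, above its 7539 CPM in smooth muscle-like wells, and Cd248 had 550.1 CPM in fibroblast-like wells.

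Relatives of the members were taken from 8 lists by family and are named in order of CPM. In 3 of the lists no gene had a count in 50% or more of the pericyte-like wells. Of the 18 other RGS genes in the table, 9 had no count in any pericyte-like well, and the highest, Rgs3, had a mean of 72.1 CPM, below its endothelial 140 CPM. Of 27 other potassium channel and sulfonylurea receptor genes, 10 had no count in pericytes, and the leaders were the accessory subunits Kcne4 (304.8 CPM) and Kcnmb1 (201.6 CPM), the latter higher in smooth muscle at 262.3 CPM. Of 9 P5 ATPase and ABCC genes, Atp13a1 led with 107.6 CPM and was higher in neuroblast-like wells. Per length of exon they also stayed below the members of their own families. On CPM per kb, Rgs19 was the highest of these other RGS genes at 30.3, Kcne4 was at 114.7 and Atp13a1 at 27.5. The members Rgs4, Kcnj8 and Atp13a5 were at 972, 1158 and 684. Rgs19, Kcne4 and Atp13a1 were above Trpc4, a member of another family, at 21.4.

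Receptors that signal through G proteins were more prominent. Of 30 listed, 4 had a count in at least 50% of the pericyte-like wells: Gper1 (2907 CPM), S1pr3, a sphingosine 1-phosphate receptor (1877 CPM), Tbxa2r, the thromboxane receptor (1043 CPM), and Ednra, an endothelin receptor (877 CPM). Per kb of exon Gper1 was at 1146, beside the 204.7 of Pth1r. Ednra was higher in smooth muscle, at 1324 CPM, and S1pr3 was also found in fibroblast-like wells, at 708 CPM. G protein subunits were led by Gng11 (660 CPM) and Gnb4 (527 CPM). Beside the receptor Pth1r, the cAMP pathway list was led by Prkar1a, the regulatory subunit of protein kinase A (1017 CPM), while Pde3a, a cAMP phosphodiesterase, was at 84.7 CPM in pericytes and 1079 in smooth muscle. In the list of Art3 and Higd1b relatives and genes of mitochondrial proteins, Cox4i2 (714 CPM) and Ndufa4l2 (567 CPM) led. Higd1a, the closest relative of Higd1b in the list, was at 20.5 CPM.

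The miR-132 mimic was compared with the control in pericyte-like cells, with counts summed per mouse, the mouse as the replicate and the sorting date as covariate. The labels do not say how far the mimic reached pericytes. Treatment follows the map of wells by descriptions, and with the map by sample titles several member folds changed sign, as given below. Kcnj8 was at 3170, 3852, 2961 and 3777 CPM of summed counts in Control mice 1, 3, 5 and 7 and at 2350, 2094, 1832 and 3253 CPM in miR-132 mice 2, 4, 6 and 8. The 3 lowest mimic mice lay below all controls and mouse 8 among them, so the groups overlapped. The fold was -0.57 ± 0.24 on the log2 scale (SE, edgeR's quasi-likelihood test, p = 0.0395, Benjamini-Hochberg adjusted p = 1), which did not pass the threshold of 0.05.

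Its partner Abcc9 was at 2655, 2711, 2719 and 2456 CPM in the controls and at 1550, 3333, 1032 and 2694 CPM in the mimic mice. The controls were close together and the mimic mice lay on both sides of them, with a log2 fold of -0.33 ± 0.34 (SE). Art3, Pth1r and Trpc4 also spread more in the mimic group: Art3 was at 1447 ± 407 CPM (SD, n = 4) in controls and 1731 ± 1446 in mimic mice, Pth1r at 607 ± 85.5 and 490 ± 356.8, and Trpc4 at 152.2 ± 33.2 and 327.7 ± 361.95. MiR-132 mouse 4, with 5 pericyte-like wells, held the highest Art3 and Trpc4 and the lowest Pth1r of all mice. A difference in spread was not tested.

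For the remaining members the group means differed by less than their SD. Rgs5 was at 6771 ± 908 CPM (SD, n = 4) in controls and 6074 ± 1468 in mimic mice, Rgs4 at 3546 ± 959 and 3158 ± 530, Atp13a5 at 3199 ± 1162 and 3330 ± 481, and Higd1b at 1525 ± 222.7 and 1485 ± 394. Their log2 folds lay between -0.19 and 0.07, with standard errors of 0.19 to 0.29. Of 9 members tested, 0 were called, and of all 5106 genes 0 were called (0%) by edgeR, with 36 at an unadjusted p under 0.05. DESeq2 called 16 genes, none of them a member. Groups of mice that did not overlap occurred for 0 of 9 members and for 2.62% of all genes. The median log2 fold was -0.17 over the members, 3 of 9 being positive, and -0.01 over all genes, 49.5% of them positive. On simulated counts of this size, with changes placed in genes drawn at random from all tested, edgeR found 0% of 4-fold and 18.2% of 16-fold changes. Changes of these sizes could thus go uncalled in many genes. These shares are over genes of all levels and do not give the power for single members. Standard errors of the members' log2 folds ranged from 0.19 for Rgs5 to 0.93 for Trpc4.

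**Figure D4:**
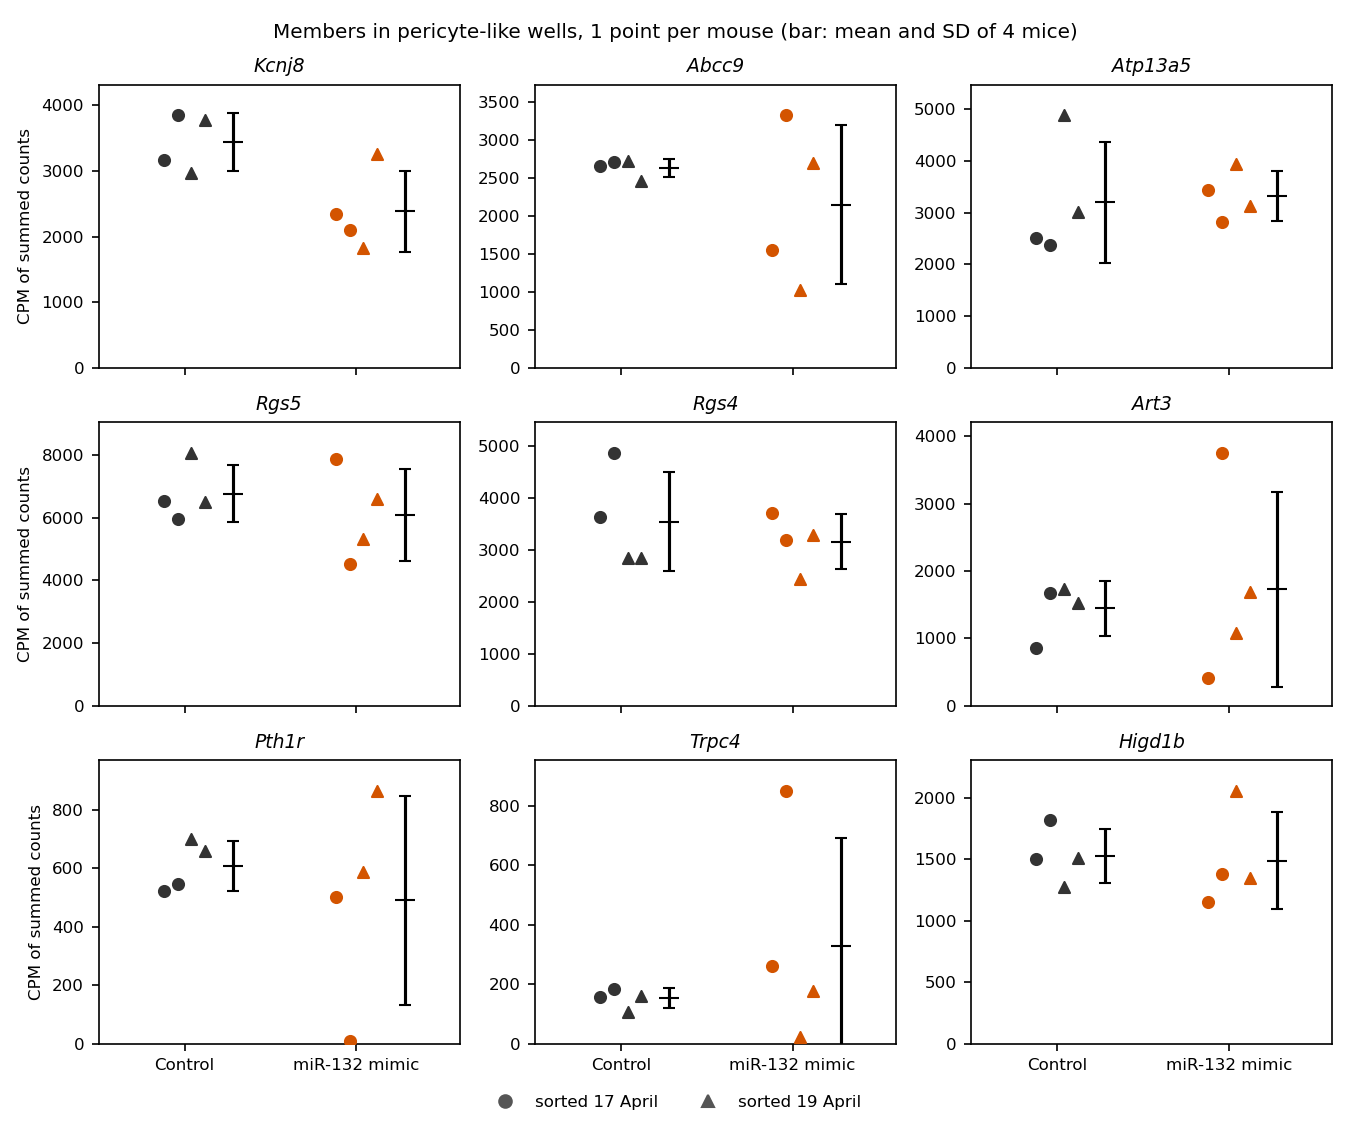
CPM of counts summed over the pericyte-like wells of each mouse (vertical axis from 0) for each member, by treatment (horizontal axis), with symbols for the sorting date and the mean and SD of 4 mice beside the points. Control and miR-132 mice overlap for all 9 members, and for Kcnj8 only miR-132 mouse 8 lies among the controls.

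No listed relative passed the test in pericyte-like cells either. Of the 4 tested potassium channel genes, 4 RGS genes, 14 G protein genes, 9 receptors, 7 parathyroid hormone and cAMP genes, 9 TRP and calcium release genes, 3 ATPase and ABCC genes and 5 genes of the Art3 and Higd1b list, 0 were called in either direction. The median log2 fold was negative in 5 of the 8 lists and positive in 3, from -1.60 for the 3 ATPase and ABCC genes to 0.61 for the 7 parathyroid hormone and cAMP genes, beside the -0.01 of all genes.

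Summed over all kept wells, where a difference can come from the number of pericytes as well as from their RNA, which cannot be told apart here, 7 members passed the filter on low counts and 0 were called (0% of 8823 genes; 395 at an unadjusted p under 0.05, and 12 genes but no member by DESeq2). Pth1r and Trpc4 did not pass it. Kcnj8 was at 267.8, 230.4, 241.3 and 777.5 CPM in the controls and at 141.6, 147.8, 236.7 and 456.3 CPM in the mimic mice. Control mouse 7 and miR-132 mouse 8 were the highest of their groups, and they also had the largest shares of pericyte-like wells, 22% and 14.3%, against 6.52% to 11.6% in the other 6 mice. The log2 fold of Kcnj8 was -0.69 ± 0.32 (SE, edgeR, adjusted p = 1). Groups did not overlap for 0 of 7 members and for 2.33% of all genes. Folds of Rgs5, Rgs4 and Higd1b, -0.14, -0.26 and -0.10, turned to 0.30, 0.12 and 0.31 without Control mouse 7. At this depth 88.1% of simulated 4-fold and 20.9% of 2-fold changes were found, again in genes drawn at random from all tested.

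Between sorting dates, pericyte-like cells showed 0 called members and 0 called genes of 5106 (0%; 85 at an unadjusted p under 0.05, and 49 genes but no member by DESeq2). Pth1r was at 523, 501, 547 and 8.66 CPM in mice 1 to 4, sorted on 17 April, and at 700, 587, 658 and 865 CPM in mice 5 to 8, sorted on 19 April. These groups did not overlap, as for 3.94% of all genes, and the log2 fold was 1.05 ± 0.90 (SE, edgeR, adjusted p = 1). Atp13a5 had the lowest unadjusted p of the members, with a log2 fold of 0.54 ± 0.21 (edgeR, p = 0.028, adjusted p = 1), and Trpc4 a fold of -1.28 ± 0.94. The median log2 fold over all genes was 0.40, so folds by date are read against that shift, and that of the members was 0.20. The difference of the mimic effect between dates was called for 0 of 5106 genes (edgeR, lowest adjusted p = 0.261, with 5.91% of genes at an unadjusted p under 0.05) and for no member.

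**Figure D5:**
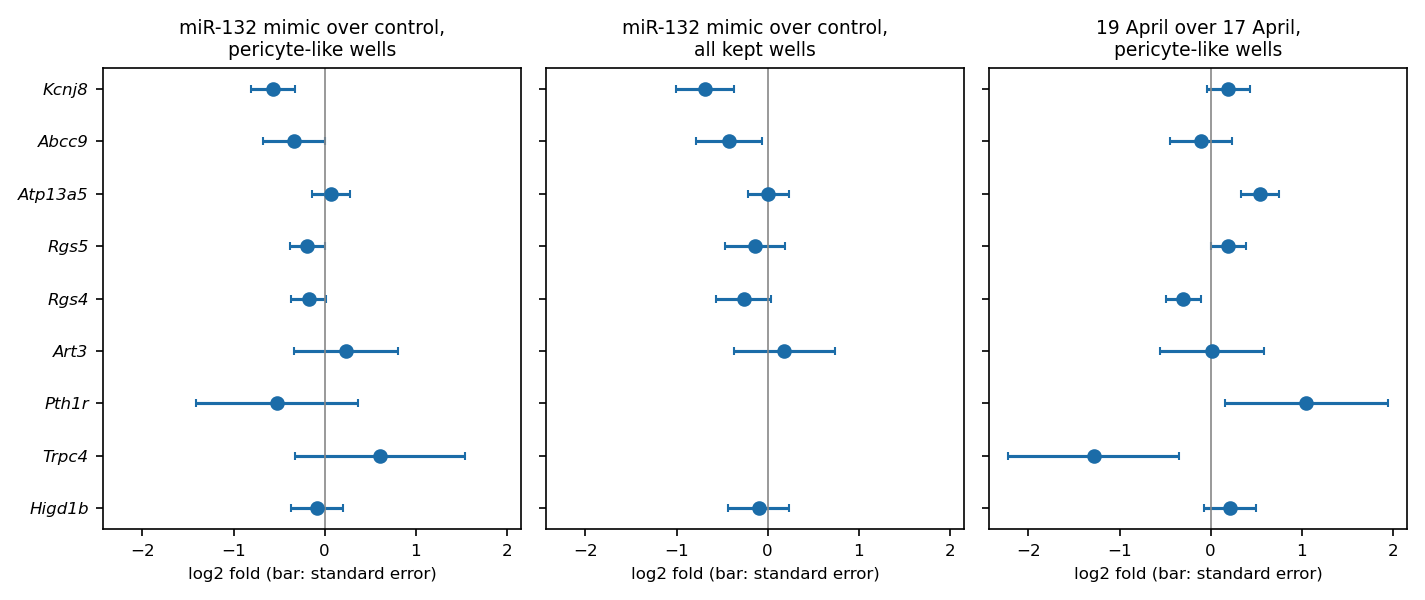
Log2 folds of the members from edgeR with their standard errors (horizontal axis) for the mimic in pericyte-like wells, the mimic in all kept wells and the sorting date in pericyte-like wells. Pth1r and Trpc4 have no value in all kept wells, and no fold passed the adjusted threshold.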

How the data were processed

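Per the labels' protocols, each Nestin:GFP+ cell gave 1 Smart-seq2 library, read on a NextSeq500. The authors deposited raw read counts, whole numbers for 32679 genes in each of 768 wells. The submitters' processing notes name featureCounts 1.5.1, Subread, STAR, FastQC and Seurat 2.3.1, and the build mm10. Their settings are not given in the sources used here. There are no molecular identifiers, so intervals cover counting error only.

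Wells were assigned to mice by the well names in the samples' descriptions. The map by sample titles, which gives the same mouse for only 96 of the 768 wells, is an alternative. Which map is right was not settled. The labels name mice, so the mouse is the replicate. Wells with at least 50000 counts and 1000 genes were kept. Leiden clustering at resolution 1 used 15 neighbours on 20 principal components of the 2000 most variable genes, members left out, after scaling each well to 10000 counts and taking logs (scanpy 1.11.5, igraph 0.11.9 and anndata 0.12.19 under Python 3.11.15). Doublets were not called, since the labels describe sorting of single cells. A limit of 6000 genes marks 16 of the unnamed wells. The table has 96 wells per mouse beside the 94 cells sorted from each. Whether those 16 wells hold single cells was not tested, and they are included in all kept wells. Of the 10 genes of highest fold in the pericyte-like cluster, 5 are members and 0 are markers of any class, and by difference of log means 2 are pericyte markers and 1 is a smooth muscle marker. Classes rest on these rebuilt names.

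The members and all lists were chosen with earlier results of these data known. Named are the 9 members, up to 5 genes per list by level in pericytes, and the 10 most alike genes. Genes counted in 10% of wells or more that passed filterByExpr were tested with edgeR 4.0.16 in R 4.3.3 (quasi-likelihood, TMM, two-sided, Benjamini-Hochberg, threshold 0.05), in mice with at least 5 pericyte-like wells. No prior count was set. The test was run on simulated data first. Alternatives were DESeq2 1.42.0 and its size factors, no filter, the title map, stricter wells, other classes and covariates, and leaving out each mouse. Promoters are from RefSeq on GRCm38.p6, with no entry for Higd1b.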

Additional observations from a re-analysis of the deposited data

Results flagged for a closer look

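Within each group of 4 mice, the highest or lowest value of each member was set against the others by Dixon's test. The values were the mean CPM over pericyte-like wells and, separately, the CPM of counts summed over all kept wells. Of 36 groups looked at, counting both kinds of value, 4 values stood apart. The limit is one that chance passes in about 1 in 20 independent groups. These 36 come from the same 8 mice and are not independent, so the count is not set against that rate. All 4 values were sums over all kept wells. Summed over all kept wells, Control mouse 7 had 777.5 CPM Kcnj8 against 230.4 to 267.8 in the other controls. The same mouse had 514.7 CPM Abcc9 against 162.6 to 219.9, and 362.1 CPM Higd1b against 107.1 to 134.1. It had 22% pericyte-like wells, the largest share of any mouse, and its levels within pericyte-like wells were not flagged. MiR-132 mouse 8 had 506.4 CPM Rgs4 against 271.7 to 306.4 in the other mimic mice, and 14.3% pericyte-like wells.

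Among the 58 wells with at least 50000 counts but fewer than 1000 genes, which entered no comparison, 11 had 1000 CPM Rgs5 or more. They held 432 to 949 genes and 2081 to 76134 CPM Rgs5, with 0 counts of Kcnj8 in all 11.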

How the results depend on the processing

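No alternative called a member. The numbers of genes called were 0 in each comparison, and they became 16 for the mimic in pericyte-like cells, 12 for the mimic in all kept wells and 49 for the date with DESeq2, and 1, 84 and 3 with no filter on low counts. Member levels were recomputed for the pericyte-like and smooth muscle-like classes, and none moved by more than its SD between mice. That SD was wide in smooth muscle, for Kcnj8 171.6 CPM around a mean by mouse of 120.7. Clusters made with the members held no smooth muscle-like class, so its levels and the contrast with pericytes could not be recomputed there. Member folds, none of which was called, changed sign mostly under the map by sample titles. With that map the mimic folds in pericyte-like cells were 0.21 for Abcc9, -0.10 for Atp13a5, 0.042 for Rgs5, -0.49 for Art3 and 0.060 for Pth1r. In all kept wells they were -0.66 for Atp13a5 and -0.89 for Art3, and for the date they were -0.24 for Kcnj8, -0.23 for Atp13a5, -0.14 for Rgs5, -0.24 for Art3, -0.43 for Pth1r, 0.52 for Trpc4 and -0.22 for Higd1b. With the well-name prefix as covariate Art3 was at -0.023 in pericyte-like cells and -0.070 in all kept wells. With clusters made with the members, which join the smooth muscle-like to the pericyte-like wells, Higd1b was at 0.0047 for the mimic and Abcc9 at 0.088 for the date. In all kept wells Atp13a5 was at -0.00069 without a filter and -0.098 without the date. For the date Abcc9 was at 0.016 without a filter, and Art3 at -0.168 with both DESeq2 and its size factors.

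Leaving out 1 mouse at a time, mimic folds in pericyte-like cells that changed sign ran from -0.035 to 0.22 for Atp13a5, -0.77 to 0.53 for Art3, -0.034 to 1.17 for Trpc4 and -0.29 to 0.054 for Higd1b. The negative values of Art3 and Trpc4 came without miR-132 mouse 4, those of Atp13a5 without mouse 2 or 3, and the positive value of Higd1b without mouse 2. In all kept wells they ran from -0.16 to 0.21 for Atp13a5, -0.40 to 0.30 for Rgs5, -0.50 to 0.12 for Rgs4, -0.87 to 0.55 for Art3 and -0.36 to 0.31 for Higd1b. For the date they ran from -0.032 to 0.32 for Kcnj8, -0.41 to 0.19 for Abcc9 and -0.28 to 1.00 for Art3. The cause was not tested. No paired analysis was possible because each mouse number occurs in 1 group only. The alternative of all mice with at least 1 pericyte-like well uses the same 8 mice. Each mouse gave 5 to 18 pericyte-like wells. In all kept wells without pericyte-like and smooth muscle-like wells, an alternative chosen after seeing the data, no member passed the filter on low counts.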

Other observations

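The 16 unnamed wells with 10045 genes or more, 2 per mouse, held nearly all the members at once. Rgs5, Rgs4, Abcc9 and Higd1b had counts in 16 of 16 and Kcnj8, Atp13a5 and Pth1r in 15. Their median levels were 683 CPM for Rgs5, 221.4 for Atp13a5, 197.3 for Rgs4, 189.3 for Kcnj8, 129.1 for Higd1b and 119.03 for Abcc9. Trpc4 had a count in 7 of them.

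Of the 93 wells that were not kept, 16 had a count of Rgs5, 9 of Rgs4, 6 of Higd1b and 4 of Abcc9, and none had a count of Kcnj8, Art3 or Trpc4.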
